A study of Homo sapiens with 4 samples.

Results

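The Notch receptors and the DSL ligands that bind them were followed in NCI-H838, a cell line from a human non-small-cell lung carcinoma, grown with and without a switch that disrupts MIB1. They are the 4 receptor genes NOTCH1, NOTCH2, NOTCH3 and NOTCH4 and the 5 ligand genes JAG1, JAG2, DLL1, DLL3 and DLL4. All 9 were found by Ensembl identifier among the 58302 genes listed, and 7 of them had enough reads to be tested. The cells, called MIB1-iKO, had a guide directed at MIB1, a Cas9 gene that doxycycline (dox) turns on and a puromycin resistance gene, brought in by a piggyBac transposon. The study isolated MIB1-iKO cells as single-cell clones, and the labels do not say which clone each library came from. RNA was sequenced on day 3 from 2 samples grown without dox and 2 samples grown with 0.5 μg/mL dox. The no dox samples carried the same construct, and dox-treated cells without a MIB1 guide were not analysed here, so dox with Cas9 and loss of MIB1 cannot be told apart.

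Notch signaling passes between touching cells. A ligand on one cell binds a receptor on its neighbor, and MIB1, an E3 ubiquitin ligase, attaches ubiquitin to the tail of the ligand so that the ligand is pulled into its own cell. The pull exposes the receptor to cleavage by ADAM proteases and then by γ-secretase, and the freed intracellular part enters the nucleus, where it joins the DNA-binding protein RBPJ and a Mastermind coactivator to switch on genes such as HES1 and HEY1. MIB1 acts on ligand proteins, and the comparison here asks which receptor and ligand transcripts these cells held and whether their levels differed after dox.

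Read totals ranged from 15943025 to 24398411 per library and were lower in both dox libraries. MIB1 reads numbered 598 and 588 where dox was withheld and 90 and 59 where it was given, so MIB1 fell as the labels have it, by 2.58 ± 0.23 (SE) on the log2 scale (adjusted p = 0.000375, limma). Of the 6 epithelial markers listed, 5 had at least 10 reads in every library, and KRT19 was listed at 0. The 6 endothelial markers summed to between 0.0536 and 0.151 RPKM (reads scaled to gene length and library size, as deposited), with KDR and ERG listed at 0. The 6 neuroendocrine markers summed to between 0.531 and 0.924 RPKM, with INSM1 listed at 0, and the 5 mural cell markers to between 1.18 and 1.92 RPKM. Most of the neuroendocrine sum came from SYP (0.402 to 0.755 RPKM) and most of the mural sum from CSPG4 (1.01 to 1.59 RPKM). The study describes its replicates as biological, the labels do not say what separates them, and the p-values measure the spread between these libraries only.

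Sequence shared with other genes was examined first, because reads of 50 bases cannot be placed where copies are identical. NOTCH2 lies on chromosome 1 from 119911553 to 120100779 on the minus strand of GRCh38, and the human-specific NOTCH2NL genes on the same chromosome are partial copies of its 5′ end. Of the 11376 stretches of 50 bases in the canonical NOTCH2 transcript, 553 (4.86%) occur unchanged in a transcript of another gene, most of them in NOTCH2NLA. The first coding difference between NOTCH2 and NOTCH2NLA with 50 bases around it in 1 exon is printed here to make the likeness visible, with the base that differs in capitals. The stretches lie at chr1:120005408-120005457 and chr1:146164830-146164879 of GRCh38, both within a coding exon of NOTCH2 or its counterpart and both read from the minus strand.
NOTCH2: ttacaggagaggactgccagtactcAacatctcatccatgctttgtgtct
NOTCH2NLA: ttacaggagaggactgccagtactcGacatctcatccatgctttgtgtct
Counted from 1 at the 5′ end of the stretch, the difference is A26G, from NOTCH2 to NOTCH2NLA. NOTCH2NLA was listed with 1 read in the 4 libraries together, against 6994 for NOTCH2. How the authors' counting treated reads that match several places is not given in the sources used here, so the value of NOTCH2 is uncertain by what fell in these shared stretches.

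No stretch of 50 bases in NOTCH1, NOTCH3, DLL3 or DLL4 was shared with another gene. In JAG2, 7.36% of stretches were shared with a long noncoding RNA gene annotated on the same strand, and in JAG1, 4.40% with one on the opposite strand. Both noncoding genes were listed at 0 reads in every library. In NOTCH4, 0.747% were shared with the neighboring gene GPSM3, which held between 6 and 22 reads. In DLL1, 8.61% were shared with FAM120B on the opposite strand. FAM120B had between 657 and 950 reads, and DLL1 had 1 read in all.

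The receptors were represented almost entirely by NOTCH3 and NOTCH2. NOTCH3 (chromosome 19, 15159038 to 15200995), a receptor best known from vascular mural cells, stood at 7.91 and 8.62 RPKM without dox and at 8.92 and 8.68 RPKM with dox, on 1611, 1635, 1178 and 1364 reads. NOTCH2, a broadly expressed receptor, stood at 5.21 and 5.53 RPKM without dox and at 5.61 and 5.86 RPKM with dox, on 1966, 1947, 1375 and 1706 reads. NOTCH3 had the higher RPKM in all 4 libraries, 1.54 ± 0.0267 times that of NOTCH2 without dox and 1.54 ± 0.0750 times with dox (SD, n = 2 in each group). NOTCH2 had more reads than NOTCH3 in each library, so the order holds per length and not in reads. The size of the lead depended on the gene lengths used. The gene models behind the deposited RPKM are not known exactly, and the NOTCH2 length they carry is 1.86 times that of NOTCH3, against 1.32 times for the canonical GENCODE transcripts. In reads per base of the canonical transcripts, NOTCH3 was 1.09 ± 0.0189 times NOTCH2 without dox and 1.09 ± 0.0532 times with dox (SD, n = 2 in each group), still the higher in all 4 libraries.

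For the other receptors, transcripts were scarce. NOTCH4 (chromosome 6, 32194843 to 32224067), a receptor typical of endothelium, was covered by 55 and 35 reads in the no dox and 31 and 32 in the dox libraries, or 0.347, 0.237, 0.302 and 0.262 RPKM. NOTCH1 (chromosome 9, 136494433 to 136546048), the receptor most studied in T cells, was covered by 31 and 13 reads in the no dox and 10 and 17 in the dox libraries, or 0.141, 0.0634, 0.0700 and 0.10 RPKM. NOTCH1 lay at percentile 0.562 of the 16181 genes tested by mean RPKM and NOTCH4 at 5.83, whereas NOTCH2 lay at 55.9 and NOTCH3 at 64.1. NOTCH1 and NOTCH4 were thus both detected and both at the low end of what could be tested.

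Among ligands, the highest per length was DLL3. DLL3 (chromosome 19, 39498895 to 39508481) encodes a divergent ligand that acts inside its own cell to inhibit Notch and is known as a surface marker of neuroendocrine lung cancer. It stood at 5.54 and 4.35 RPKM without dox and at 4.61 and 4.31 RPKM with dox, on 313, 229, 169 and 188 reads. The library with the highest value was no dox replicate 1, and the groups overlapped. JAG1 (chromosome 20, 10637684 to 10673999), a widely used activating ligand, stood at 1.67 and 2.11 RPKM without dox and at 1.79 and 2.71 RPKM with dox, on 238, 279, 165 and 297 reads. Dox replicate 2 was the highest for JAG1, and dox replicate 1 lay between the no dox libraries.

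JAG2 (chromosome 14, 105140982 to 105168824), the other Jagged ligand, stood at 2.00 and 1.79 RPKM without dox and at 1.39 and 1.19 RPKM with dox, on 274, 228, 124 and 126 reads. Both dox libraries lay below both no dox libraries, as they did on the log2 scale for 19.1% of all genes tested. DLL4 (chromosome 15, 40929340 to 40939073), a ligand of sprouting endothelium, had 5 reads in no dox replicate 1, 5 in dox replicate 2 and 0 in the other libraries. DLL1 (chromosome 6, 170282206 to 170306565), a ligand of neural and somite development, had 1 read in no dox replicate 2 and 0 elsewhere. A count of 0 allows up to 3 reads, which for DLL1 corresponds to between 0.0402 and 0.0620 RPKM by library, a limit that covers counting error only. DLL1 and DLL4 did not pass the filter on low counts and were not tested.

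**Figure D1:**
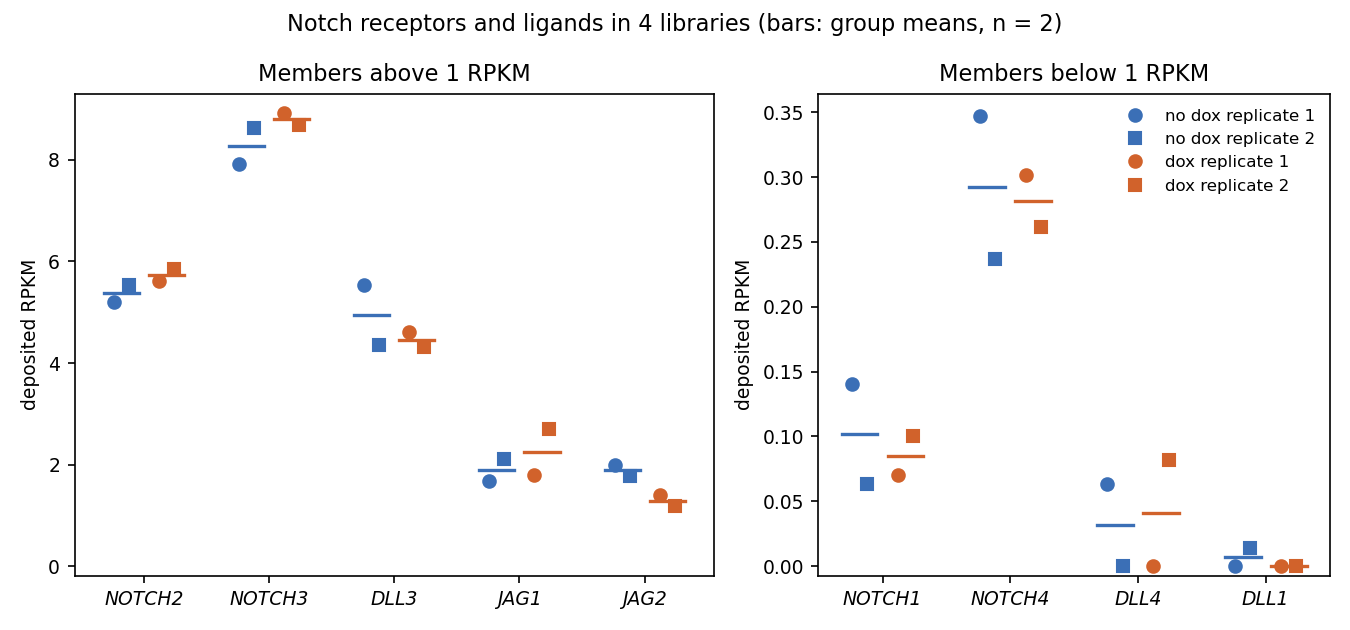
Deposited RPKM of the 9 genes in each of the 4 libraries, with members above 1 RPKM on the left and those below on the right on a separate scale. Horizontal bars are group means of 2 libraries. The JAG2 points with dox (1.39 and 1.19) lie under those without (2.00 and 1.79), while the JAG1, DLL3, NOTCH1 and NOTCH4 points of the groups overlap.

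Ordered by mean RPKM over the 4 libraries, the genes ran NOTCH3, NOTCH2, DLL3, JAG1, JAG2, NOTCH4, NOTCH1, DLL4 and DLL1. NOTCH2 and DLL3 were neighbors whose ranges overlapped, with NOTCH2 higher in 3 of 4 libraries. JAG1 and JAG2 overlapped too, JAG1 being higher in 3 of 4, and so did NOTCH1 with DLL4 and DLL4 with DLL1. The ranges of the remaining neighbors did not overlap. The summed receptor RPKM was 14.0 ± 0.60 without dox and 14.9 ± 0.00154 with dox, and the summed ligand RPKM 8.77 ± 0.720 and 8.04 ± 0.354 (SD, n = 2 in each group).

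The make-up of the receptor pool was nearly the same in every library, while that of the ligand pool varied. NOTCH3 made up between 58.2% and 59.8% of the summed receptor RPKM, and NOTCH2 between 37.7% and 39.3%. In reads per base of the canonical transcripts these shares were 50.2% to 51.9% and 46.0% to 47.7%. DLL3 made up between 52.0% and 59.7% of the summed ligand RPKM, and between 56.1% and 63.7% of the ligand reads per base. JAG1 made up 18.1% and 25.5% without dox and 23.0% and 32.7% with dox. JAG2 made up 21.5% and 21.6% without dox and 17.9% and 14.4% with dox. The ratio of JAG1 to JAG2 RPKM was 0.838 and 1.18 without dox and 1.28 and 2.27 with dox, so both dox libraries had the higher ratios, dox replicate 1 by a small margin over no dox replicate 2. Counted in reads rather than per length, JAG1, JAG2 and DLL3 took 33.3%, 32.0% and 34.4% of the ligand reads without dox (means, n = 2), so the lead of DLL3 is one of level per length.

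**Figure D2:**
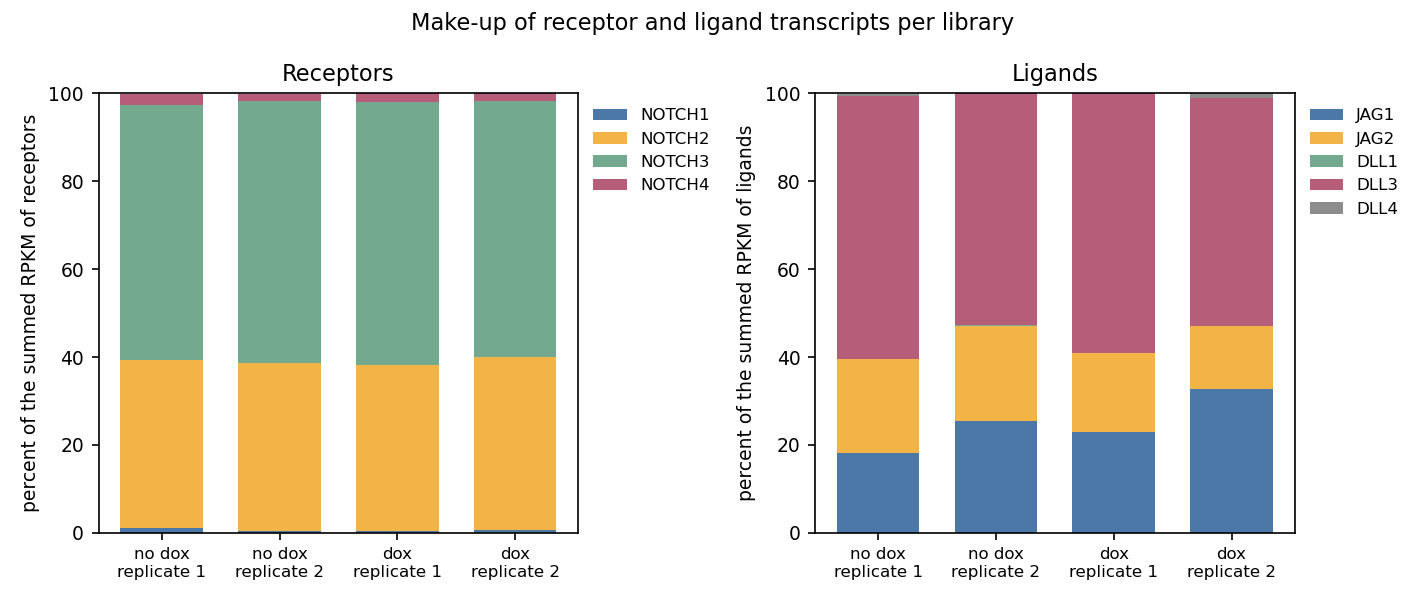
Percent of the summed RPKM taken by each receptor (left) and each ligand (right), 1 stacked bar per library. NOTCH3 and NOTCH2 fill nearly the whole receptor bar in all 4 libraries, and the JAG2 share is 21.5% and 21.6% without dox against 17.9% and 14.4% with dox.

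The receptor and ligand genes were then compared between dox and no dox in the fit across all 16181 genes tested. Calling required a 2-fold change and a limma adjusted p no higher than 0.05. It took in 0 of the 7 and 0.0371% of all genes, and without the 2-fold minimum 0 of the 7 and 0.0680% of all genes. edgeR and DESeq2 also called 0 of the 7. At an unadjusted p under 0.05, 1 of the 7 passed with limma, against 9.28% of all genes (4.59% lower and 4.68% higher with dox). That gene, JAG2, which was lower, was also the only one of the 7 to pass with edgeR and with DESeq2. Of the 16181 genes, 1467 passed with edgeR and 906 with DESeq2, on the same 4 libraries. The groups did not overlap on the log2 scale for 3 of the 7, JAG2 below and NOTCH2 and NOTCH3 above, against 38.6% of all genes (19.1% lower and 19.5% higher). For a single gene, the smallest p that exact two-sided permutation of 2 against 2 libraries allows is 0.333.

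JAG2 had the largest change relative to its error. Its RPKM was 1.89 ± 0.151 without dox and 1.29 ± 0.144 with dox (SD, n = 2 in each group), or 0.683 of the no dox level. On the log2 scale the difference was -0.54 ± 0.19 (SE), with an adjusted p of 0.403 by limma and a 95% interval, not adjusted for the number of genes, from -0.96 to -0.12. In bulk RNA, fewer cells with the transcript and less of it per cell cannot be told apart. Over the 9 alternative fits on 4 libraries the log2 fold change lay between -0.55 and -0.34, and the adjusted p between 0.0495 and 0.665. Leaving out each library in turn gave values between -0.65 and -0.43. The unadjusted p was then above 0.05 without no dox replicate 1 (0.0994, limma) and without dox replicate 2 (0.108, limma). The value was below 0 in all of these fits and reached 2-fold in none.

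Of the other ligands, JAG1 differed by 0.28 ± 0.21 (SE) on the log2 scale, with an adjusted p of 0.728 by limma. Its 95% interval ran from -0.17 to 0.72, and the difference was smaller than the spread between the dox replicates. Without dox replicate 2 the value was -0.026. For DLL3 the log2 fold change, -0.13 ± 0.19 (SE), had an adjusted p of 0.882 by limma and an interval from -0.54 to 0.28. Without no dox replicate 1 the value was 0.072.

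For NOTCH2 the log2 fold change, 0.13 ± 0.12 (SE), had an adjusted p of 0.777 by limma and an interval from -0.12 to 0.38. The value of NOTCH3 was also 0.13 ± 0.12 (SE), with an adjusted p of 0.793 by limma and an interval from -0.13 to 0.38. These are the best measured of the genes, and their intervals were the narrowest. NOTCH4 had a log2 fold change of -0.08, with an interval from -0.80 to 0.64, and NOTCH1 one of -0.28, with an interval from -1.36 to 0.80 (limma). The sign of both rested on no dox replicate 1, without which NOTCH4 was at 0.18 and NOTCH1 at 0.30, and it also turned without dox replicate 2 for NOTCH4 (0.0027) and without dox replicate 1 for NOTCH1 (0.03). The intervals of 6 of the 7 genes lay within a 2-fold change in either direction, as did 77.4% of the intervals of all genes tested. That of NOTCH1, on 10 to 31 reads per library, reached beyond a 2-fold decrease.

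**Figure D3:**
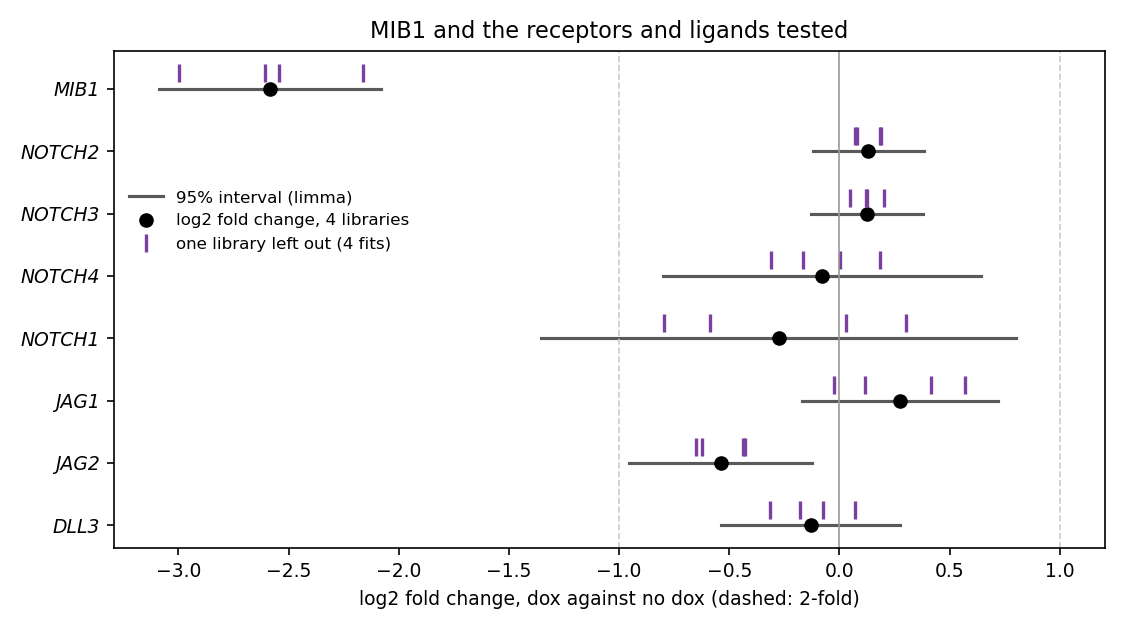
Log2 fold change of dox against no dox for MIB1 and the 7 receptor and ligand genes tested (points), with limma's 95% interval (lines) and the values with one library left out (ticks). MIB1 stands at -2.58, JAG2 at -0.54 with all ticks below 0, and the ticks of NOTCH1, NOTCH4, JAG1 and DLL3 fall on both sides of 0.

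The genes whose pattern over the 4 libraries was most like that of JAG2 were ZNF813, ECM2 and HMMR, with Pearson's r of 0.99988, 0.99975 and 0.99965 on the log2 scale. With 4 libraries this is a description only, since 103 of the 12343 genes compared reached an r of 0.99 or more.

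The other genes of the pathway were taken from 6 lists ordered by role, 45 genes without MIB1, of which 38 had enough reads to test. None was called by limma, edgeR or DESeq2. An unadjusted p under 0.05 was found for 4 of the 38 with limma, 4 with edgeR and 3 with DESeq2. Among all 16181 genes it was found for 9.28% with limma, for 1467 genes with edgeR and for 906 with DESeq2. The median log2 fold change of the 38 was -0.03, and that of all genes tested was -0.0004. The groups did not overlap for 19 of the 38, 7 higher and 12 lower with dox, against 38.6% of all genes.

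On the list of ligand ubiquitination and uptake, 4 genes besides MIB1 were tested. MIB2, the other Mind bomb ligase, had a log2 fold change of 0.29 ± 0.17 and the epsin EPN1, an endocytic adaptor, one of 0.20 ± 0.14 (SE). The epsin EPN2 stood at -0.15 ± 0.14 and the Neuralized ligase NEURL1 at -0.17 ± 0.16 (SE). MIB2 stood at 3.38 ± 0.448 RPKM without dox and 4.06 ± 0.331 with dox (SD, n = 2 in each group), and NEURL1 at 4.49 ± 0.131 and 3.95 ± 0.569. All had adjusted p-values of 0.643 or more (limma). NEURL1B, with 4 reads or fewer per library, was not tested.

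Sugars added to the receptors set which ligands they respond to. POFUT1, which adds O-fucose, had a log2 fold change of -0.19 ± 0.12, and POGLUT1, which adds O-glucose, one of -0.19 ± 0.13 (SE). FURIN, which cuts the receptors during maturation, stood at 0.16 ± 0.13, and the Fringe enzyme RFNG at 0.13 ± 0.19 (SE). Of the Fringe genes, RFNG alone was well covered, with 166 to 270 reads, while LFNG reached 3 reads and MFNG 6 in their highest library. None of the 5 genes tested here passed an unadjusted p of 0.05.

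The proteases that cut the bound receptor were all present. All 8 genes of the list were tested, and the median log2 fold change was -0.06. The value was below 0 for 7 of them, against 8101 of the 16181 genes tested. The γ-secretase subunit genes PSEN2 and APH1B stood at -0.23 and -0.16, and ADAM17 at 0.13. None passed an unadjusted p of 0.05, and the lowest adjusted p was 0.685 (limma). NCSTN, another subunit gene, had the most reads of the list, between 2347 and 3843 per library. It is among those below 0, at -0.0006 ± 0.12 (SE).

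In the nuclear complex, 8 of 8 genes were tested, with a median of 0.11. MAML2, a Mastermind coactivator, had the largest value of all 38 genes, 1.16 ± 0.42 (SE) on the log2 scale, with an adjusted p of 0.398 by limma. It rested on few reads, 15 and 33 in the no dox and 31 and 45 in the dox libraries, or 0.0898, 0.212, 0.286 and 0.349 RPKM. Its relative MAML1 stood at -0.46 ± 0.27 and the acetyltransferase EP300 at -0.19 ± 0.17 (SE), neither past an unadjusted p of 0.05. RBPJ had between 658 and 1008 reads and a log2 fold change of 0.13.

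Among genes that restrain or turn over receptors, DLK2, a noncanonical ligand-like protein, was at -0.33 ± 0.15 (SE) on the log2 scale, with an adjusted p of 0.520 by limma. It stood at 11.0 and 12.8 RPKM without dox and at 8.66 and 9.99 RPKM with dox, above the RPKM of every canonical ligand in each library. The Deltex genes DTX4 and DTX2 stood at -0.39 and -0.24, and NUMB, which removes receptors from the surface, at -0.19. DLK1 and DTX1 were listed at 0 in every library.

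The Notch target genes did not share a direction. HES1 stood at 4.48 and 3.68 RPKM without dox and at 5.61 and 6.33 RPKM with dox, and HEY1 at 1.19 and 1.36 and at 1.71 and 2.65. Their log2 fold changes were 0.56 ± 0.20 for HES1 (limma, adjusted p = 0.407) and 0.74 ± 0.27 for HEY1 (limma, adjusted p = 0.415). NRARP and HEYL, also targets of Notch, stood at -0.38 ± 0.23 and -0.32 ± 0.25 (SE). For each, both dox libraries lay under both no dox libraries, as on the log2 scale for 19.1% of all genes tested. For HES1 and HEY1 they lay above, as for 19.5% of all genes tested. HES1 and HEY1 passed an unadjusted p of 0.05 and NRARP and HEYL did not, and the median of the 5 targets tested was 0.15. HES5 and HEY2 had 1 read in each no dox library and 0 in the dox libraries.

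**Figure D4:**
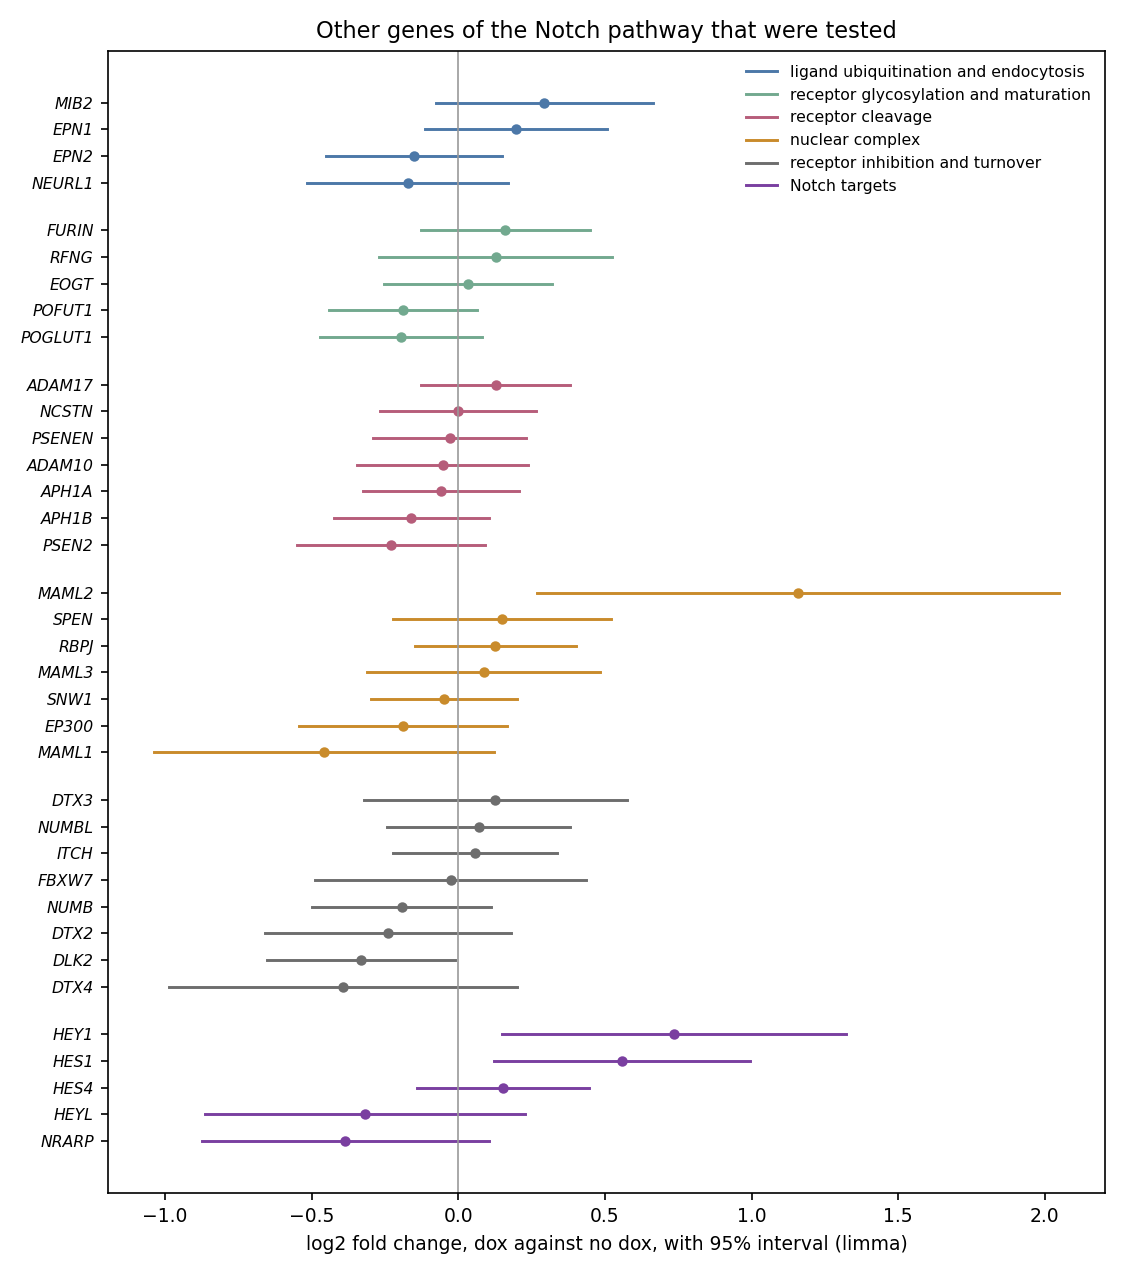
Log2 fold change of dox against no dox (points) with limma's 95% interval (lines) for 36 of the 38 other pathway genes tested, colored by role. The lines of MAML2, HEY1 and HES1 lie above 0 and that of DLK2 lies just below it, before adjustment for the number of genes, and all other lines cross 0.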

How the data were processed

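RNA from 4 samples of MIB1-iKO cells was sequenced. Ribosomal reads were discarded by the authors, who mapped what remained to GRCh38 by GSNAP and counted exonic reads per gene by HTSeqGenie. The deposited counts are raw whole numbers per gene and library. The deposited RPKM are the authors' own normalized values and carry a further scaling per library; the gene lengths used are not given exactly. Whether counting used strand is not given in the sources used here. Totals were 15943025 to 24398411 reads, so genes with few reads are measured poorly.

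Symbols and positions came from GENCODE 44 on GRCh38, and 57532 of 58302 identifiers had a symbol. Genes passing filterByExpr (16181) were scaled to library size, quantile-normalized, weighted with voom and tested with limma 3.58.1 in R 4.3.3, as in the study's methods, with Benjamini-Hochberg adjustment over all genes tested. Calls needed 2-fold and an adjusted p no higher than 0.05. Alternatives used edgeR 4.0.16, DESeq2 1.42.0, other scalings, filters, thresholds and pseudocounts (0.1 and 1 on log2 RPKM), the replicate number, and each library left out. The tests were tried on simulated counts. Shared sequence was found by exact match of 50-base stretches of canonical transcripts to all GENCODE transcripts, on both strands.

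The members and lists were chosen with earlier results of these data known. Pathway lists were typed from textbook knowledge. Named were the members, MIB1, up to 4 genes per list with the smallest p, and the 3 genes most like the member with the smallest p. NCSTN, RBPJ and untested genes were picked with their values in view. Some listed genes are counted but not reported here by name.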

Additional observations from a re-analysis of the deposited data

How the results depend on the processing

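At 2-fold and an adjusted p no higher than 0.05, 0 receptor and ligand genes and 0 other pathway genes were called in every fit. These fits tested 7 receptor and ligand genes, except for 9 without a filter on low counts and 5 where a mean of 50 reads was required. With no fold minimum the counts were also 0, except in the fit with the replicate block. There JAG2 and 1 of the 38 other pathway genes, HEY1 (0.75, adjusted p = 0.0398, limma), passed. How many of all genes passed that threshold in the block fit is not given here. At an unadjusted p under 0.05 (limma) the block fit held 3276 of the 16181 genes, with 1 of the 7 and 9 of the 38 among them. Over all genes, 6 were called with limma on voom weights. The count was 0 without a filter on low counts (2092 genes at an unadjusted p under 0.05), 0 on log2(RPKM + 0.1) and 0 on log2(RPKM + 1) (1442 and 1438), 11 with no fold minimum and 78 with the replicate number as a block. Fits with one library left out have 1 library in a group, which is assumed to vary like the other group. Their counts over all genes are not compared here. MIB1 was not called without the filter (-2.58), on log2(RPKM + 0.1) (-2.33), on log2(RPKM + 1) (-1.34) or with one library left out (-2.998 to -2.16). The cause was not tested. Where MIB1 itself was not called, the 0 receptor and ligand genes and 0 other pathway genes called say little.

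With one library left out, log2 fold changes ranged from -0.80 to 0.30 for NOTCH1, from -0.31 to 0.18 for NOTCH4, from -0.026 to 0.57 for JAG1 and from -0.31 to 0.072 for DLL3. NOTCH1 turned positive without no dox replicate 1 (0.30) or dox replicate 1 (0.03), and NOTCH4 without no dox replicate 1 (0.18) or dox replicate 2 (0.0027). NOTCH2, NOTCH3 and JAG2 kept their direction in all fits. The labels give both groups the same replicate numbers without saying what a number stands for. In the fit with the replicate number as a block JAG2 had a log2 fold change of -0.53 and an adjusted p of 0.0495, short of 2-fold, and deviations from the group means correlated at r = 0.134 between same-numbered libraries, over genes. With 2 pairs the numbers cannot be said to pair the libraries. Scaled by total counts in place of the deposited scaling, the dox to no dox ratio of JAG2 was 0.690 against 0.683. Lengths of canonical transcripts, tried after seeing the data, moved the NOTCH3 to NOTCH2 ratio without dox from 1.54 to 1.09. The depth limits NOTCH1, NOTCH4, DLL1 and DLL4.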
